A study of Homo sapiens with 6 samples.

Results

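The genes described here make cholesterol and fatty acids, or control their synthesis, in human cells labelled as the bladder cancer line T24. They are 31 genes chosen by name from a table of 58735. Of these, 6 encode enzymes of the mevalonate and isoprenoid steps, 11 enzymes from squalene to cholesterol, and 7 enzymes of fatty acid synthesis and desaturation. Another 5, called regulators here, encode the SREBP transcription factors and the proteins that control them. The others are the cytosolic thiolase ACAT2 and the sterol carrier STARD4. All 31 symbols were found once each. RNA sequencing was done on 6 libraries from cells labelled T24, grown in RPMI1640 with fetal bovine serum. The 3 libraries labelled sgOTUD1 have the genotype OTUD1 knockout, and the 3 labelled sgNC carry an empty vector as the negative control. OTUD1 is a deubiquitinase, which takes ubiquitin off other proteins. The labels give no treatment, guide sequence or clone, and do not say whether replicates were separate cultures. A p-value here therefore measures spread between libraries only, and that spread may be technical.

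Cells make cholesterol from acetyl-CoA through mevalonate, isoprenoids, squalene and lanosterol, and fatty acids from acetyl-CoA and malonyl-CoA. SREBF1 and SREBF2 encode SREBP1 and SREBP2, transcription factors made as precursors in the membrane of the endoplasmic reticulum. SCAP carries the precursors to the Golgi for cleavage when sterols are scarce, whereas INSIG1 and INSIG2 hold SCAP back when sterols are plentiful. SREBP2 acts mainly on cholesterol genes and SREBP1 mainly on fatty acid genes.

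The libraries held between 16697370 and 17191933 reads on genes. The gene OTUD1 was at 16.2, 17.9 and 17.1 FPKM (fragments scaled by exon length and library size) in the libraries labelled sgOTUD1, against 13.9, 15.6 and 14.6 FPKM in sgNC, a log2 fold change of 0.20 (limma adjusted p = 0.0167, and 0.02 after correction for gene length, adjusted p = 0.755). The transcript was thus not lower in the libraries labelled as the knockout, which are called sgOTUD1 after their label throughout. Reads on mitochondrial genes made up 2.08% to 2.23% of reads in sgOTUD1 and 3.80% to 4.11% in sgNC. Fold change fell with gene length, with a slope of -0.15 in log2 fold change per doubling of exon length over 11372 nuclear protein-coding genes (Pearson r = -0.35, across genes). The part of the mitochondrial share and of gene length in the results below was not tested. Length-corrected values are given for the leading genes, and for called pathway genes where they end the call or move the value by over 1.5 times. Most genes that were not called are given uncorrected, and some of these moved by more. With that correction DHCR7 moved from 0.11 to 0.02, SREBF1 from 0.04 to 0.13 and ABCA1 from -0.16 to 0.00044, none of them called. Of 10 epithelial and urothelial markers 9 were expressed enough to test, and their summed level was 3040 to 3206 FPKM in sgOTUD1 and 2469 to 2646 FPKM in sgNC. KRT5, KRT8, KRT14, KRT18 and GATA3 were higher (log2 fold change 0.22 to 0.70) and TP63 and CDH1 lower (-0.19 and -0.51), while KRT7 and UPK2 were not called and UPK1B was at most at 0.162 FPKM. Of 3 mesenchymal markers VIM was higher (0.51) and CDH2 lower (-0.22), and ZEB1 did not exceed 0.0783 FPKM. Mean levels in sgOTUD1 and sgNC were 1483 and 1195 FPKM for KRT5, 943 and 707 for KRT14, and 48.2 and 69.1 for CDH1. They were 4.94 and 3.96 FPKM for GATA3, 1.89 and 1.45 for UPK2, and 48.2 and 33.7 for VIM. After length correction GATA3 and TP63 were not called (0.12 and -0.12), and KRT14 moved from 0.42 to 0.19. Before that correction 7 of the 10 epithelial and urothelial markers and 2 of the 3 mesenchymal markers were called, beside 55.9% of all genes tested. The part of these markers in the results was not tested. That the cells are T24 rests on the labels alone, and these levels were not compared with any reference for that line. Markers of adipocytes and hepatocytes, tissues with strong lipid synthesis, reached at most 0.346 and 0.0429 FPKM in any library, and leukocyte markers at most 0.0397 FPKM. Of 3 fibroblast markers COL1A1 was lower, at 3.85 and 5.87 FPKM in sgOTUD1 and sgNC (log2 fold change -0.50, limma adjusted p = 0.000421). COL1A2 and DCN reached at most 0.00512 and 0.00433 FPKM.

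Sterol enzyme genes moved in both directions, with more of them higher in sgOTUD1. Of the 7 genes of the fatty acid arm, 5 were lower and 0 higher. This did not extend to 14 tested neighbouring genes of fatty acid elongation, desaturation, activation and glycerolipid synthesis, of which 5 were higher and 1 lower. The inhibitors INSIG1 and INSIG2 were higher and the transcription factor gene SREBF2 was lower. All 31 genes passed the filter on low values (a mean of at least 0.5 FPKM over the 6 libraries). Of these, 11 were higher, 11 lower and 9 not called at a limma adjusted p under 0.05, adjusted over all 14658 genes tested. Over all genes tested 55.9% were called, 31.2% higher and 24.7% lower, so many calls are the rule in this comparison. Rescaling to TPM moved the median log2 fold change over all genes tested to -0.10 and left 9 of the 31 genes higher and 12 lower, with 36.8% of all calls higher in place of 55.9%. For 24 of the 31 genes the sgOTUD1 and sgNC values were fully separate, against 64.0% of all genes tested (34.9% with sgOTUD1 above and 29.1% with sgOTUD1 below). The 31 genes had a median log2 fold change of 0.06, against 0.03 over all genes tested. Fold changes are of sgOTUD1 over sgNC on the scale of log2(FPKM + 1), which understates the change of low genes.

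**Figure D1:**
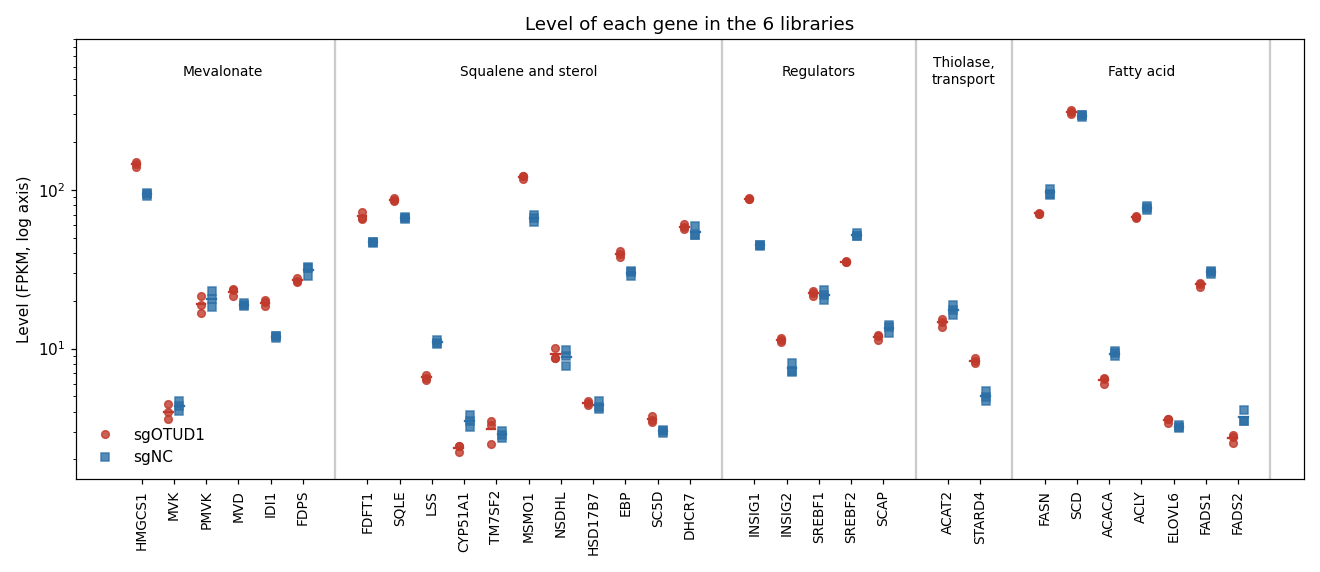
Level of each of the 31 genes (FPKM, log axis) in the 3 sgOTUD1 libraries (circles) and the 3 sgNC libraries (squares), with the mean of each group as a line, arranged by role. SCD has the highest level in both groups, and INSIG1, MSMO1, HMGCS1 and IDI1 sit well above their sgNC values.

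Among the regulators, INSIG1 changed most. This gene (ENSG00000186480, chromosome 7, 155297776 to 155310235, plus strand of hg38) encodes the anchor that retains SCAP in the endoplasmic reticulum, and is itself a known SREBP target. It was at 89.4, 87.8 and 87.9 FPKM in sgOTUD1, against 44.5, 44.8 and 45.1 FPKM in sgNC. The groups lay far apart compared with their spread (log2 fold change 0.96, SE 0.028, limma adjusted p = 2.26e-06). INSIG2, its paralogue with the same function, was lower in level but moved the same way, at 11.4, 10.96 and 11.7 FPKM in sgOTUD1 and 7.14, 8.10 and 7.25 FPKM in sgNC. The difference exceeded the spread between libraries (log2 fold change 0.54, SE 0.055, limma adjusted p = 0.000191). The INSIG1 level exceeded that of INSIG2 by a ratio of 7.78 ± 0.25 in sgOTUD1 and 5.99 ± 0.40 in sgNC (SD, n = 3 each), and these ratios did not overlap between the groups.

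SREBF2 (ENSG00000198911, chromosome 22, 41833079 to 41907308, plus strand) was lower. It was at 35.5, 35.0 and 35.3 FPKM in sgOTUD1, against 51.3, 51.4 and 53.5 FPKM in sgNC. Every sgOTUD1 library was below every sgNC library (log2 fold change -0.55, SE 0.032, limma adjusted p = 1.91e-05). SREBF1 was not called, at 21.3, 22.5 and 23.1 FPKM in sgOTUD1 and 21.6, 20.3 and 23.3 FPKM in sgNC, values that overlap (log2 fold change 0.04, limma adjusted p = 0.585). The ratio of SREBF2 to SREBF1, which does not depend on how libraries are scaled, was 1.58 ± 0.073 in sgOTUD1 and 2.40 ± 0.12 in sgNC (SD, n = 3 each). SREBF1 shares 6.92% of its exon bases with RAI1 on the opposite strand, and no source used here says whether the reads were counted by strand. SCAP, the escort of both precursors, was at 12.3, 11.3 and 11.96 FPKM in sgOTUD1 and 13.8, 12.6 and 14.1 FPKM in sgNC. The groups were separate by a small margin, and the call (log2 fold change -0.17, SE 0.053, limma adjusted p = 0.0277) ended after length correction (-0.14, adjusted p = 0.0602), without a filter, or without sgOTUD1 replicate 2 or 3 or sgNC replicate 1 or 3 (highest limma adjusted p over all alternatives 0.0853). Read within each library, the level of INSIG1 was 2.51 ± 0.013 times that of SREBF2 in sgOTUD1 and 0.861 ± 0.016 times in sgNC (SD, n = 3 each), so the order of these 2 levels was opposite in the groups. These genes were called in opposite directions, so the ratio only restates their changes.

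Sequences before the annotated start are shown for the 3 largest increases and 3 largest decreases among the called genes that have a window in the RefSeq table, because members that move together can be read against the sites SREBPs are known to use. Each window runs from 250 bases before to 50 after the start (RefSeq, GRCh38.p14), 5′ to 3′ on the strand of the gene. Capitals mark matches on either strand to TCACNCCAC, a type of sterol regulatory element, to CCAAT, the site of the partner factor NF-Y, and to the E-box CACGTG. The windows are chr7:155297628-155297927 (plus strand) for INSIG1, chr4:165327419-165327718 (plus) for MSMO1, chr10:1048837-1049136 (minus) for IDI1, chr21:46228725-46229024 (minus) for LSS, chr22:41832855-41833154 (plus) for SREBF2 and chr17:37299718-37300017 (minus) for ACACA. IDI1 and ACACA have 3 windows each in that table, and the one with most matches is shown.
INSIG1: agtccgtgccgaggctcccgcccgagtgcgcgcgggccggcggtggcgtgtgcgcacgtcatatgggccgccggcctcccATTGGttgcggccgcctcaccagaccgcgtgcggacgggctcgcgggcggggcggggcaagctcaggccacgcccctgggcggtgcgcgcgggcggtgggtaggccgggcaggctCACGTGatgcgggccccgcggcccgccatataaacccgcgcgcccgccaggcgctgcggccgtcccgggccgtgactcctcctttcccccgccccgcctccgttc
MSMO1: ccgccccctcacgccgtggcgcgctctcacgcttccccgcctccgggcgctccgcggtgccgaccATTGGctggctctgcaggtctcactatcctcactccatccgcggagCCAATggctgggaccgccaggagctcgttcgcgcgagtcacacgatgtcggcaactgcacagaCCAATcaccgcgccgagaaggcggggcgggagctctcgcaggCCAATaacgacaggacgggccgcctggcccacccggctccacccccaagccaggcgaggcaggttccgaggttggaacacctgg
IDI1: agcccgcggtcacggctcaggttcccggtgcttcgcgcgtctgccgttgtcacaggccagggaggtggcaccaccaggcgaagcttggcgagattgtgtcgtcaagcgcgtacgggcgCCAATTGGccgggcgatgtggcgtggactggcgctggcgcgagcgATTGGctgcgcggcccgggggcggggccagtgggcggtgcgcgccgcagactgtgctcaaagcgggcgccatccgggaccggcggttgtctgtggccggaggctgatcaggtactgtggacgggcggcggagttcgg
LSS: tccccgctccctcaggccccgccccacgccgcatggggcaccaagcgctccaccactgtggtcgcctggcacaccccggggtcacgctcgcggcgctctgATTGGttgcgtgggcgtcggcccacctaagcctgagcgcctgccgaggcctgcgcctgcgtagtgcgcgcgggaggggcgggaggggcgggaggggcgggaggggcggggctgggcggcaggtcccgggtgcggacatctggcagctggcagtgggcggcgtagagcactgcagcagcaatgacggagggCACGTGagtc
SREBF2: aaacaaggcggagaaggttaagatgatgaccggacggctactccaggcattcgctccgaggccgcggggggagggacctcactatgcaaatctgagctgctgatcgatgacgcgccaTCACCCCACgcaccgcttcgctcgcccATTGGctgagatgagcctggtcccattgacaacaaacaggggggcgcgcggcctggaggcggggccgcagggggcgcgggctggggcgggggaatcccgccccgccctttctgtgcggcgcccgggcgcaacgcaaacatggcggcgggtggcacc
ACACA: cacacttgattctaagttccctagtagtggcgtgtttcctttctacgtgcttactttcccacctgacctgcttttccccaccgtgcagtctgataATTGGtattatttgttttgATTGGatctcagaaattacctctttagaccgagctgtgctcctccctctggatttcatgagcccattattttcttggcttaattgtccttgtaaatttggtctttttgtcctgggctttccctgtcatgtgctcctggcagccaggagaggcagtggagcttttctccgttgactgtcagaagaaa

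The window of SREBF2 held the match TCACCCCAC, at position -133 from the start, with a CCAAT match on the other strand at position -106. It was the only 1 of 37 windows of these genes with that sterol element type, which occurred in 1.13% of all 35116 windows and in 1.03% of the 13592 windows of genes tested. CCAAT was found in 24 of the 37 windows (64.9%), against 34.6% of all windows and 34.7% of those of genes tested. By call, it occurred in 8 of 9 higher genes with a window, 6 of 9 lower genes and 6 of 9 genes not called. The CCAAT match is thus present on genes that moved either way, such as MSMO1 with 4 matches and LSS with 1. In IDI1 a match on each strand overlaps the other. CACGTG was found in INSIG1, LSS, SC5D and SCAP, which are 5 of 37 windows (13.5%, against 7.26% of all windows and 9.58% of windows of genes tested). FDFT1, SQLE, FASN and ACAT2 have no window here. A match is only a run of letters, and no binding was measured.

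**Figure D2:**
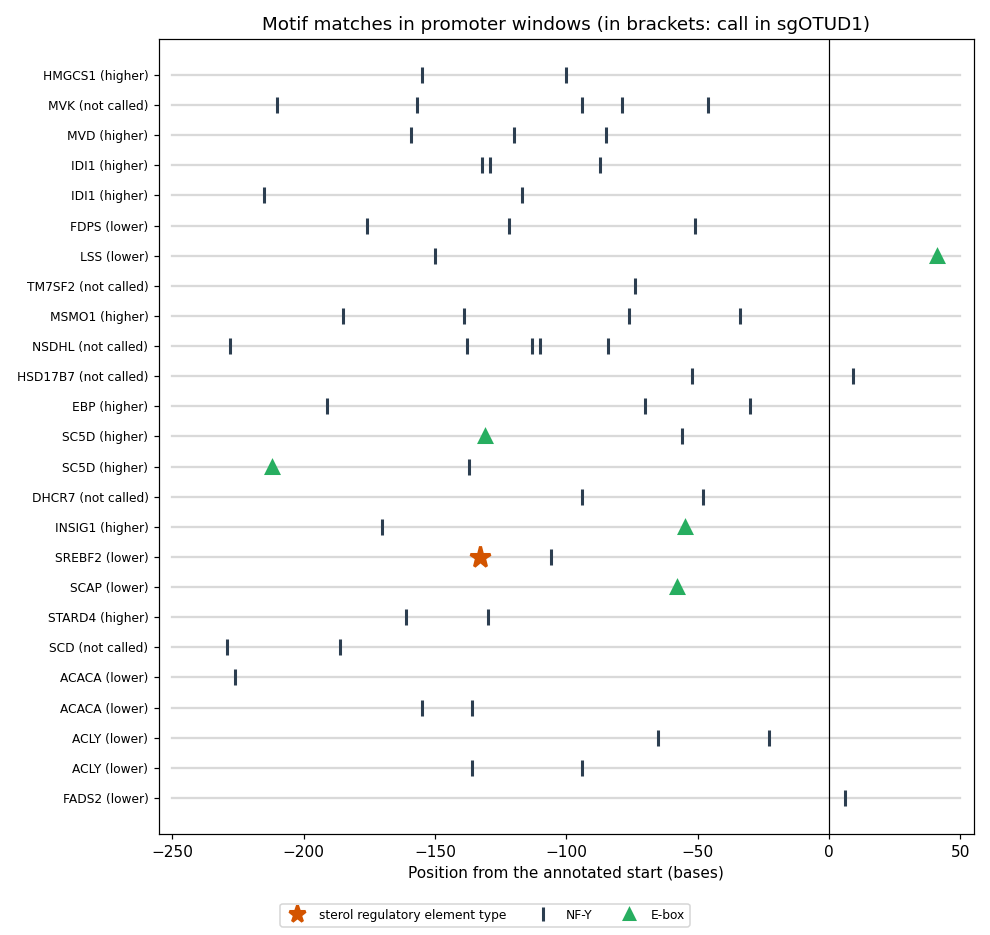
Positions of motif matches, in bases from the annotated start, in the 25 of 37 promoter windows of these genes that hold at least 1 match, with the call of each gene in sgOTUD1 in brackets. NF-Y matches (bars) lie mostly before the start in higher, lower and uncalled genes, and the single sterol element match (star) is in SREBF2.

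In the mevalonate and isoprenoid steps, 3 of 6 genes were higher, 1 was lower and 2 were not called, with a median log2 fold change of 0.08. In this small list 66.7% were called, against 55.9% of all genes tested, with 50% higher and 16.7% lower against 31.2% and 24.7%. HMGCS1, which makes HMG-CoA, was at 151, 141 and 146 FPKM in sgOTUD1, against 95.9, 94.4 and 91.4 FPKM in sgNC. Each sgOTUD1 value lay well above each sgNC value (log2 fold change 0.63, SE 0.037, limma adjusted p = 2e-05). IDI1, the isomerase that provides the reactive isoprenoid unit, was at 20.2, 18.6 and 19.8 FPKM in sgOTUD1 and 11.9, 12.1 and 11.7 FPKM in sgNC (log2 fold change 0.67, SE 0.041, limma adjusted p = 2.4e-05). All sgOTUD1 values again lay above all sgNC values. MVD, the decarboxylase of the pathway, rose less, to 22.9 ± 1.2 FPKM in sgOTUD1 against 18.9 ± 0.47 FPKM in sgNC (SD, n = 3 each, log2 fold change 0.26, limma adjusted p = 0.00297), but was not called with TPM (0.12, limma adjusted p = 0.0539). The kinases MVK (4.01 and 4.35 FPKM in sgOTUD1 and sgNC) and PMVK (19.04 and 20.6 FPKM) overlapped between the groups, and with TPM MVK was called lower (-0.26, limma adjusted p = 0.0441). FDPS, which makes farnesyl diphosphate, fell to 26.98 ± 0.75 FPKM in sgOTUD1, against 31.3 ± 2.2 FPKM in sgNC (log2 fold change -0.20, limma adjusted p = 0.0168, and -0.32 after length correction). That call ended without sgOTUD1 replicate 2 or without sgNC replicate 2 (highest limma adjusted p over all alternatives 0.0564), and 18.6% of the FDPS exon bases are shared with RUSC1-AS1 on the opposite strand.

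From squalene to cholesterol, 5 of 11 genes were higher, 2 lower and 4 not called, with a median log2 fold change of 0.11. In all 63.6% were called, against 55.9% of all genes tested, with 45.5% higher and 18.2% lower against 31.2% and 24.7%. FDFT1, squalene synthase, was at 66.9, 66.1 and 72.3 FPKM in sgOTUD1, against 47.2, 46.3 and 47.0 FPKM in sgNC (log2 fold change 0.54, SE 0.041, limma adjusted p = 5.62e-05). SQLE, the squalene epoxidase that follows it, was at 88.6, 86.9 and 84.8 FPKM in sgOTUD1, against 66.9, 68.2 and 65.6 FPKM in sgNC (log2 fold change 0.37, SE 0.032, limma adjusted p = 9.84e-05). Both squalene enzymes were thus higher in every sgOTUD1 library.

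LSS, which closes squalene epoxide into lanosterol, the next step, went the other way. LSS (ENSG00000160285, chromosome 21, 46188141 to 46228824, minus strand) was at 6.57, 6.33 and 6.84 FPKM in sgOTUD1, against 10.7, 10.9 and 11.4 FPKM in sgNC. This was the largest decrease among the 31 genes (log2 fold change -0.66, SE 0.044, limma adjusted p = 3.28e-05). SQLE had 13.2 ± 0.70 times the level of LSS in sgOTUD1 and 6.09 ± 0.26 times in sgNC (SD, n = 3 each), which again only restates the changes of both genes. CYP51A1, the lanosterol demethylase that acts after LSS, was at 2.43, 2.44 and 2.22 FPKM in sgOTUD1, against 3.20, 3.82 and 3.51 FPKM in sgNC (log2 fold change -0.42, SE 0.068, limma adjusted p = 0.00173). It rests on few reads, a mean of 139 in sgOTUD1 and 223 in sgNC, and 79.4% of its exon bases are also annotated to AC000120.2 on the same strand, which is listed at 0 in all libraries. The level of CYP51A1 is therefore uncertain, and no ratio is drawn from it.

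MSMO1, the methylsterol oxidase after CYP51A1, was the sterol enzyme with the largest increase. MSMO1 (ENSG00000052802, chromosome 4, 165327623 to 165343160, plus strand) was at 124, 117 and 123 FPKM in sgOTUD1, against 66.8, 69.9 and 62.6 FPKM in sgNC (log2 fold change 0.86, SE 0.048, limma adjusted p = 1.63e-05). EBP, the isomerase of a later sterol step, was at 38.0, 39.5 and 41.2 FPKM in sgOTUD1, against 28.6, 30.5 and 31.0 FPKM in sgNC (log2 fold change 0.39, SE 0.046, limma adjusted p = 0.000407). The groups were separate for both genes. EBP was among the genes that moved most with length correction, to a log2 fold change of 0.17 (limma adjusted p = 0.0093). The desaturase SC5D was slightly higher, at 3.59 ± 0.17 FPKM in sgOTUD1 and 3.01 ± 0.060 FPKM in sgNC (SD, n = 3 each, log2 fold change 0.20, limma adjusted p = 0.0149), a call that ended with TPM and without sgOTUD1 replicate 3 or sgNC replicate 1. TM7SF2, NSDHL, HSD17B7 and DHCR7, which act in the reductase and demethylation steps, overlapped between the groups, with log2 fold changes of 0.07, 0.06, 0.04 and 0.11 and adjusted p from 0.14 to 0.628. DHCR7, the last reductase, was the highest of these at 58.8 ± 1.8 FPKM in sgOTUD1 and 54.6 ± 4.0 FPKM in sgNC.

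The remaining sterol genes also split. STARD4, which moves cholesterol between membranes and is a known SREBP target, was at 8.37, 8.74 and 8.09 FPKM in sgOTUD1, against 4.70, 5.41 and 4.98 FPKM in sgNC (log2 fold change 0.64, SE 0.057, limma adjusted p = 0.000106). ACAT2, the thiolase that joins acetyl-CoA units ahead of HMGCS1, fell to 14.6 ± 0.94 FPKM in sgOTUD1, against 17.6 ± 1.3 FPKM in sgNC (SD, n = 3 each, log2 fold change -0.25, limma adjusted p = 0.0161). Its exon bases overlap those of TCP1 on the opposite strand over 9.23% of their length, and TCP1 was at 56.03 FPKM in sgOTUD1 and 34.1 FPKM in sgNC, so with an unknown strand setting the ACAT2 value is uncertain. The ACAT2 call also ended without sgOTUD1 replicate 3 (limma adjusted p = 0.0515).

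**Figure D3:**
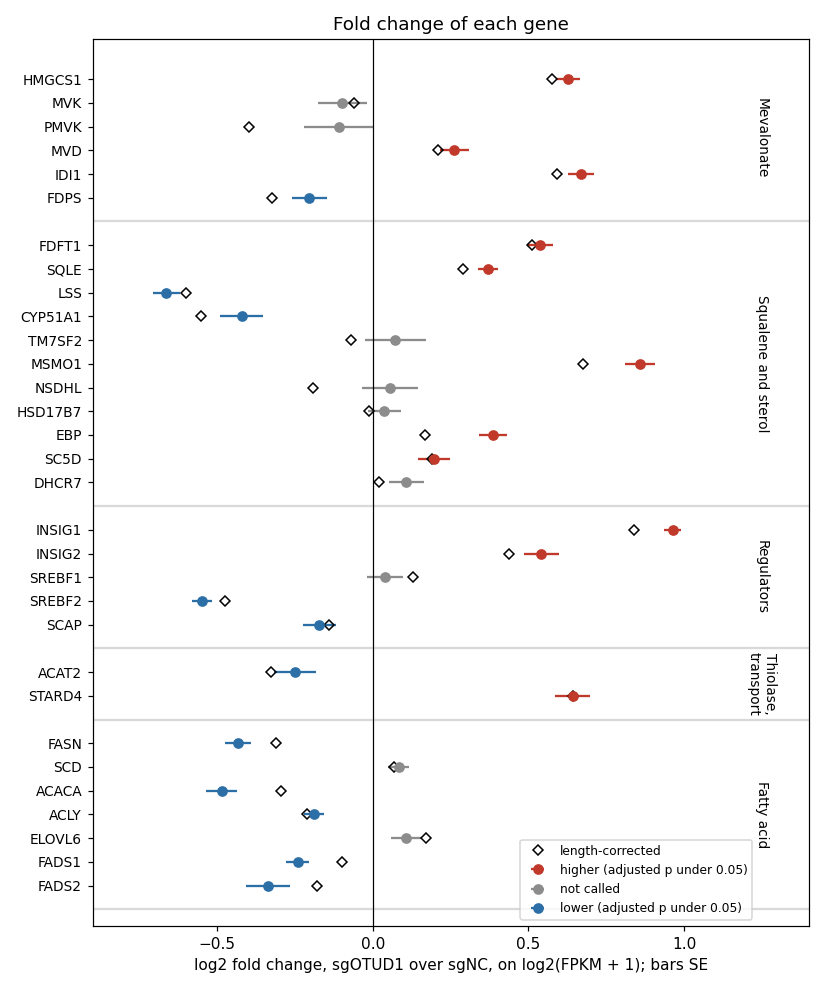
Log2 fold change of sgOTUD1 over sgNC for the 31 genes by role (filled points, bars are SE, coloured by call), with the length-corrected value as an open diamond. Sterol enzymes lie on both sides of 0, the called fatty acid genes lie to the left, and the diamonds of FASN, ACACA, FADS1 and FADS2 lie nearer to 0.

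In the fatty acid arm, 5 of 7 genes were lower, 0 were higher and 2 were not called, with a median log2 fold change of -0.24. The lower genes are 71.4% of this small list, against 24.7% of all genes tested. FASN, the synthase itself (ENSG00000169710, chromosome 17, 82078333 to 82098332, minus strand), was at 70.7, 72.0 and 71.1 FPKM in sgOTUD1, against 93.8, 94.0 and 102 FPKM in sgNC. The groups did not overlap (log2 fold change -0.43, SE 0.041, limma adjusted p = 0.000139). ACACA, the carboxylase that makes malonyl-CoA for FASN, was at 6.56, 6.02 and 6.47 FPKM in sgOTUD1, against 8.92, 9.62 and 9.34 FPKM in sgNC (log2 fold change -0.49, SE 0.049, limma adjusted p = 0.000185). ACLY, which supplies cytosolic acetyl-CoA from citrate, fell to 67.7 ± 0.95 FPKM in sgOTUD1, against 77.3 ± 1.9 FPKM in sgNC (SD, n = 3 each, log2 fold change -0.19, limma adjusted p = 0.00218). The 3 enzymes that lead from citrate to palmitate were thus all lower.

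The desaturases did not move together. FADS2, a desaturase of polyunsaturated fatty acids, was at 2.85, 2.75 and 2.56 FPKM in sgOTUD1, against 3.51, 3.50 and 4.12 FPKM in sgNC (log2 fold change -0.34, SE 0.07, limma adjusted p = 0.00539). FADS1, its neighbour on chromosome 11 with an opposite strand and 490 shared exon bases, fell to 25.4 ± 0.69 FPKM in sgOTUD1, against 30.3 ± 0.65 FPKM in sgNC (SD, n = 3 each, log2 fold change -0.24, limma adjusted p = 0.00124). SCD, which makes monounsaturated fatty acids and had the highest level of all 31 genes, was at 311 ± 9.5 FPKM in sgOTUD1 and 294 ± 5.1 FPKM in sgNC. Its groups did not overlap, but the log2 fold change of 0.08 missed the threshold (SE 0.034, limma adjusted p = 0.0734). ELOVL6, the elongase of palmitate, was at 3.54 ± 0.12 and 3.21 ± 0.068 FPKM in sgOTUD1 and sgNC and was likewise not called (log2 fold change 0.11, limma adjusted p = 0.103), and with TPM both genes were slightly below 0. SCD had 4.37 ± 0.15 times the level of FASN in sgOTUD1 and 3.05 ± 0.20 times in sgNC (SD, n = 3 each).

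Gene length differs between the arms. The fatty acid genes had a median exon length of 9364 bases and the 17 sterol enzymes one of 4305 bases, and fold change and log2 exon length were related over the 31 genes too (Pearson r = -0.41, across genes, which are not independent replicates). After length correction 4 fatty acid genes were lower and 1, ELOVL6, was higher (log2 fold change 0.17, limma adjusted p = 0.0208). The median of the arm was then -0.18, against -0.03 over all genes tested. For the 17 sterol enzymes the median went from 0.11 to 0.02 with that correction, and 8 were higher and 4 lower, in place of 8 and 3. FASN was then at -0.31, ACACA at -0.30, ACLY at -0.21 and FADS1 at -0.10, all still past the threshold, while FADS2 was not (-0.18, limma adjusted p = 0.0709). INSIG1, MSMO1, HMGCS1 and IDI1 kept log2 fold changes of 0.84, 0.68, 0.58 and 0.59, and LSS and SREBF2 of -0.60 and -0.48. FDFT1, SQLE, INSIG2 and STARD4 were at 0.51, 0.29, 0.44 and 0.64, and CYP51A1 at -0.55. Over all 31 genes 12 were higher and 10 lower with that correction, against 26.3% higher and 28.0% lower of all genes tested. PMVK, the gene with the shortest exon length of the set (1280 bases), became a decrease of -0.40 (limma adjusted p = 0.0146).

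Levels were also summed per library, which weights the most abundant genes. The 17 sterol enzymes together made up 645, 636 and 646 FPKM in sgOTUD1, against 472, 484 and 481 FPKM in sgNC. The 7 fatty acid genes summed to 498, 488 and 479 FPKM in sgOTUD1 and 516, 513 and 514 FPKM in sgNC. In each library the sterol sum was divided by the fatty acid sum, giving 1.30, 1.30 and 1.35 in sgOTUD1 and 0.915, 0.945 and 0.936 in sgNC. The sterol enzymes thus carried the larger sum in each sgOTUD1 library and the smaller in each sgNC library. Without SCD the ratio was 3.63 ± 0.030 in sgOTUD1 and 2.18 ± 0.056 in sgNC (SD, n = 3 each). HMGCS1 against FASN gave a ratio of 2.05 ± 0.088 in sgOTUD1 and 0.974 ± 0.070 in sgNC. This pair sets a gene called higher against a gene called lower, so its ratio only restates those changes, and the more abundant SCD was not used. These ratios do not depend on the scaling between libraries, but they do carry the relation to gene length.

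**Figure D4:**
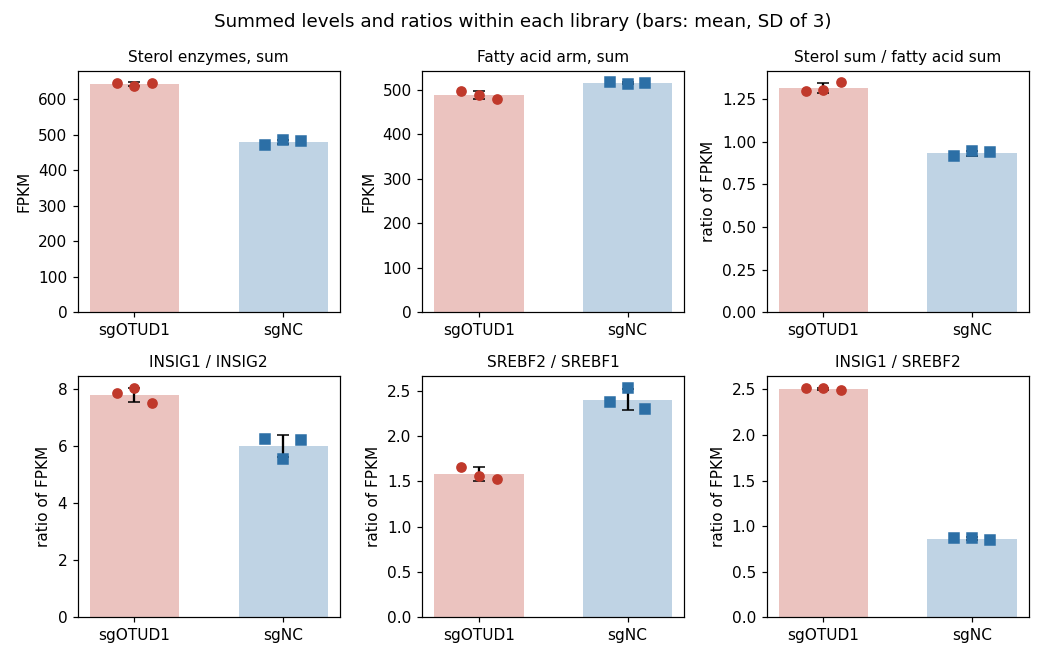
Summed FPKM of the 17 sterol enzymes and the 7 fatty acid genes, and ratios of levels within each library, with sgOTUD1 at the left and sgNC at the right (points are libraries, bars the mean, error bars the SD of 3). The groups are separate in all 6 panels, with the ratio of SREBF2 to SREBF1 and the fatty acid sum lower in sgOTUD1.

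Around these genes, 50 others of the same pathways were read, of which 49 were expressed enough to test. Of these 15 were higher, 7 lower and 27 not called, so 44.9% were called, against 55.9% of all genes tested, with a median log2 fold change of 0.04. The balance of directions depended on the scaling, with 7 higher and 18 lower with TPM and 11 higher and 14 lower with median-ratio rescaling. Among 8 genes of sterol sensing and SREBP processing, 1 was higher and 2 lower (12.5% and 25.0%, against 31.2% and 24.7% of all genes tested), but 5 were lower with median-ratio rescaling or limma-voom and 7 with TPM. RNF139, a ubiquitin ligase of the endoplasmic reticulum, was at 34.5 ± 1.3 FPKM in sgOTUD1 and 25.9 ± 0.70 FPKM in sgNC (log2 fold change 0.40, limma adjusted p = 0.000189). ERLIN2, a sterol-sensitive membrane scaffold, was at 2.90 ± 0.14 and 4.43 ± 0.027 FPKM in sgOTUD1 and sgNC (-0.48, adjusted p = 0.000214). The proteases that cleave SREBP precursors, MBTPS1 and MBTPS2, were not called (limma adjusted p of 0.069 and 0.128). All SDs in this and the next paragraph are over 3 libraries, and p-values are limma adjusted p.

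MYLIP, a ubiquitin ligase switched on by the oxysterol receptors LXR, had the largest increase of the neighbouring genes. It was at 28.4 ± 0.57 FPKM in sgOTUD1 and 11.5 ± 0.085 FPKM in sgNC (log2 fold change 1.23, limma adjusted p = 2.26e-06). NR1H3, which encodes LXR alpha, fell to 0.489 ± 0.057 FPKM in sgOTUD1, against 1.45 ± 0.24 FPKM in sgNC (-0.72, adjusted p = 0.000869). It rests on few reads, a mean of 36.3 in sgOTUD1 and 117 in sgNC. NR1H2, the gene of LXR beta, was far more abundant and not called, at 21.5 ± 0.73 and 21.2 ± 1.8 FPKM in sgOTUD1 and sgNC (0.02, adjusted p = 0.785). The LXR targets ABCA1 and ABCG1, transporters of cholesterol out of cells, were not called (-0.16, adjusted p = 0.0775, and -0.04, adjusted p = 0.756). Of 8 genes of uptake, transport and storage 2 were higher and 1 lower (25.0% and 12.5%, against 31.2% and 24.7% of all genes tested). NPC2, which takes cholesterol out of lysosomes, changed most, at 180.1 ± 0.56 FPKM in sgOTUD1 and 97.5 ± 3.1 FPKM in sgNC (0.88, adjusted p = 4.68e-06). STARD3 was slightly higher (0.13, adjusted p = 0.016) and OSBP slightly lower (-0.15, adjusted p = 0.0144), and without sgOTUD1 replicate 3 neither was called (0.12 and -0.12). STARD3 also lost its call without sgNC replicate 2 and was at -0.01 with TPM.

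Supply of acetyl-CoA and NADPH had 4 of 6 genes higher, against 31.2% of all genes tested, and 0 lower, but with TPM 1 was higher and 1 lower. The malic enzyme ME1 was at 28.2 ± 1.3 FPKM in sgOTUD1 and 17.8 ± 1.2 FPKM in sgNC (log2 fold change 0.64, limma adjusted p = 0.000107), and MID1IP1, an activator of acetyl-CoA carboxylase, at 34.8 ± 0.70 and 29.8 ± 1.5 FPKM (0.22, adjusted p = 0.00527). The call of MID1IP1 ended with length correction (0.10, adjusted p = 0.0615) and with TPM (0.07, adjusted p = 0.19). In the isoprenoid branch 2 of 8 genes were higher and 2 lower (25.0% each, against 31.2% and 24.7% of all genes tested). NUS1, a dolichol synthesis subunit, was at 13.4 ± 0.76 and 8.38 ± 0.093 FPKM in sgOTUD1 and sgNC (0.61, adjusted p = 5.87e-05). GGPS1, which makes geranylgeranyl diphosphate, was at 2.66 ± 0.19 and 3.66 ± 0.55 FPKM (-0.34, adjusted p = 0.0169). The farnesyltransferase subunits went apart, FNTA higher (0.17, adjusted p = 0.0167) and FNTB lower (-0.19, adjusted p = 0.0163), but FNTA was not called without sgOTUD1 replicate 2 (0.15) or sgNC replicate 2 (0.16), with median-ratio rescaling (0.12) or with TPM (0.05), nor FNTB without sgNC replicate 2 (-0.18). GGPS1 was not called without sgOTUD1 replicate 3 (-0.30). Among 15 genes of fatty acid elongation, desaturation, activation and glycerolipid synthesis, 14 were tested, 5 were higher and 1 was lower. That is 35.7% and 7.14%, against 31.2% and 24.7% of all genes tested. The elongase ELOVL5 was at 65.9 ± 1.5 and 45.5 ± 1.9 FPKM in sgOTUD1 and sgNC (0.53, adjusted p = 5.67e-05) and the enoyl reductase TECR at 28.7 ± 1.5 and 19.9 ± 1.0 FPKM (0.50, adjusted p = 0.000246). SCD5, a paralogue of SCD, was the lower one, at 9.63 ± 0.45 and 12.8 ± 0.56 FPKM (-0.38, adjusted p = 0.000625). ACACB, the paralogue of ACACA, was too low to test.

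After length correction 14 of the 49 neighbouring genes tested were higher and 9 lower, against 26.3% and 28.0% of all genes tested. MYLIP and NPC2 then had log2 fold changes of 1.06 and 0.68, ME1, NUS1, ELOVL5 and TECR of 0.49, 0.56, 0.41 and 0.52, and NR1H3, ERLIN2 and SCD5 of -0.78, -0.35 and -0.46. RNF139 was at 0.20, while FNTA and FNTB were farther from 0, at 0.29 and -0.30. ELOVL1, an elongase that was among the higher genes (0.21, limma adjusted p = 0.00142), was at -0.00523 with that correction and not called.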

How the data were processed

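Total RNA of 6 libraries was sequenced after library preparation with NEBNext Ultra reagents, as the labels' protocols state. The authors deposited FPKM values (per the file headers), 1 column per library. DESeq2 1.20.0 and featureCounts 1.5.0-p3 are named without a role in the submitters' processing notes, as is hg38. The aligner and any use of strand are not given there. GENCODE 29 gave exon lengths (union of exons) and positions for the 58735 genes. Multiplied by exon length, 100% of the FPKM values above 0 were whole multiples of 1 number per library (tolerance 0.001 reads), which recovered the reads. Those numbers equal the geometric mean of the totals times median-ratio size factors, so the values already carry a scaling between libraries.

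The 14658 genes averaging 0.5 FPKM or more were tested on log2(FPKM + 1) with limma 3.58.1 in R 4.3.3 (moderated by eBayes, using its trend and robust settings), with no term besides group. Tests were two-sided and adjusted by Benjamini-Hochberg. For length correction, a spline in log2 exon length with 4 degrees of freedom was fitted per library to the tested nuclear protein-coding genes and subtracted. On simulated reads the fits recovered most large changes but fewer small ones, and false calls were more frequent than the threshold allows, chiefly in genes with few reads. The test's limit on false calls was set over genes with more reads, after the share over all genes exceeded it. With a length trend added to the simulation, most uncorrected calls were of genes changed by that trend alone, and length correction removed most but not all of them. Tables were read with Python 3.11.15 and pandas 2.3.3. Members and lists were chosen with earlier results of these data known. Every library value is given for regulators and for called genes with a log2 fold change of at least 0.3 in size, and neighbouring genes are named by smallest adjusted p, up to 2 in each direction per list. Where other neighbours are named, they were chosen after their values were seen, and 1 neighbouring gene is not reported here. Other alternatives were an offset of 0.1, testing all genes above 0, testing only those averaging 5 FPKM or more, TPM, rescaling by median ratios, no trend or robust option, a replicate block, leaving out each library, and limma-voom on the recovered reads. Replicate pairs differed beyond sampling noise (chi-square per gene of at least 2.06), so each library was counted once. Protein sequences were not used here.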

Additional observations from a re-analysis of the deposited data

How the results depend on the processing

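Of 186 member fold changes with a library left out, 172 kept direction and side of the threshold, 9 lost the call, 1 gained it and 4 changed sign. Of 272 under the other alternatives, 250 kept both, 5 lost the call, 5 gained it and 12 changed sign. INSIG1, INSIG2, SREBF2, HMGCS1, IDI1, FDFT1, SQLE, EBP, MSMO1, LSS, STARD4, FASN, ACACA, ACLY and FADS1 kept their calls in every alternative run on them, as did CYP51A1. The median over all genes tested was -0.10 with TPM, against 0.03. The share of calls that were higher was 55.9% of those over 14658 genes tested, against 36.8% with TPM, where 19388 genes were tested. It was 66.3% with a mean FPKM of at least 5, where 1757 of 7047 genes tested were lower, in place of 3615 of 14658. Genes below that limit drop out of every count given for that setting. 

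Each alternative was run gene by gene for the members and the neighbours named by rule. Among these, sign changes occurred in genes that were not called and in STARD3 (-0.0103 with TPM). With TPM these were TM7SF2 (-0.0526), NSDHL (-0.0876), HSD17B7 (-0.10), DHCR7 (-0.0426), SREBF1 (-0.11), SCD (-0.0695) and ELOVL6 (-0.0133). With length correction they were TM7SF2 (-0.0713), NSDHL (-0.19) and HSD17B7 (-0.011), and with median-ratio rescaling HSD17B7 (-0.00971) and SREBF1 (-0.0156). With a library left out TM7SF2 ranged from -0.00013 to 0.18, NSDHL from -0.0288 to 0.12 and SREBF1 from -0.00737 to 0.0877.

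Lower mevalonate genes numbered 2 with TPM or length correction and 0 to 1 with a library left out. Lower sterol genes numbered 1 at a mean FPKM of at least 5, and lower regulators 1 with no filter or length correction and 1 to 2 with a library left out. The thiolase and transport pair had 0 to 1 lower with a library left out. With length correction or limma-voom 1 fatty acid gene was higher (ELOVL6 and SCD). Calls over all genes ranged from 4065 to 4305 higher and 3073 to 3299 lower with a library left out.

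OTUD1 had a log2 fold change of 0.20 (limma adjusted p = 0.0167), and 3 against 3 libraries gave the lowest two-sided p their exact permutation allows, 0.1. It was 0.15 with median-ratio rescaling, 0.0613 with TPM, 0.0215 with length correction, none of them called, and 0.17 to 0.24 with a library left out. It was not called without sgOTUD1 replicate 2 (limma adjusted p = 0.0552) or without sgNC replicate 1 (0.0566).

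Lower neighbouring genes numbered 2 at a mean FPKM of at least 5, 14 with median-ratio rescaling, 18 with TPM and 13 with limma-voom, in place of 7, and TPM left 7 higher in place of 15. By list, lower genes of sterol sensing were 0, 5, 7 and 5 in those settings, and of LXR and efflux 0, 2, 2 and 2 (1 to 2 with a library left out). In uptake and transport, median-ratio rescaling and TPM each gave 1 higher and 2 lower, length correction 2 lower, and leaving out a library 1 to 2 higher and 0 to 2 lower. Acetyl-CoA supply had 1 lower with median-ratio rescaling, TPM or limma-voom and 1 higher with TPM. The isoprenoid branch had 1 higher and 0 lower at a mean FPKM of at least 5, 1 higher with either rescaling, and 1 to 2 of each with a library left out. Elongation and glycerolipid genes had 2 lower with median-ratio rescaling, length correction, limma-voom or no trend option, 3 lower and 2 higher with TPM, and 1 to 2 lower with a library left out. The cause of these changes was not tested.

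Same-numbered libraries did not deviate together (correlations of 0.00155, -0.0513 and -0.0007). These values give no sign of pairing by replicate number. With 3 libraries per group they cannot exclude a small shared effect, and the labels do not say whether the numbers pair the samples. With the replicate block 4431 genes were higher and 3360 lower, and the counts of members stayed at 11 and 11.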
